A study of Mus musculus with 12 samples.

Results

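Cd44, Cd24a, Epcam, Prom1, Aldh1a3 and Sox9 are genes used to mark tumour-initiating cells and mammary stem or progenitor cells. Their rows were taken from the deposited expression table by gene symbol: 6 of its 78317 genes, each with 1 identifier. All 6 had counts, and 4 of the 6 (Cd44, Cd24a, Epcam and Sox9) passed the filter on low counts and were tested with 14012 genes in all. Prom1 and Aldh1a3 did not pass it and are described by their counts. The samples were 4T1 cells, cultured mouse mammary carcinoma cells of the triple-negative kind, in 4 groups of n = 3 biological replicates: PBRM1 knockout (KO) cells with 5 ng/ml TGFβ1 for 4 days, PBRM1 KO cells without it, control cells with the same TGFβ1 treatment, and control cells without it. The library names carry sgPB for PBRM1 KO and sgCt for control cells. The sources used here do not say whether the knockout cells were 1 clone or a pool. The protocol describes 4 days with or without TGFβ1 while the untreated samples carry 0 h in their names, so a part of the time in culture in the TGFβ1 differences cannot be told apart.

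TGFβ1 acts through SMAD transcription factors and can turn epithelial cells mesenchymal. PBRM1 is a bromodomain protein of the chromatin remodeller PBAF. In human breast cancer, cells with much CD44 and little CD24 at the surface are enriched for tumour-initiating cells, and activity of aldehyde dehydrogenases such as ALDH1A3 marks another such population. In the mouse mammary gland, stem and progenitor cells are sorted with CD24, EPCAM and integrins rather than with CD44. CD44 is the main receptor for hyaluronan, CD24 a small glycoprotein held by a lipid anchor, EPCAM an adhesion protein of epithelia and prominin-1 (Prom1, CD133) a protein of membrane protrusions. SOX9 is a transcription factor of mammary luminal progenitor and stem cells. These are properties of proteins, and the libraries measured messenger RNA of whole cultures: in bulk samples, fewer cells of a type and less RNA per cell cannot be told apart.

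Counts were of 3′ ends after removal of duplicates, with library totals from 9265693 to 11250850, and levels are given as CPM, counts scaled to the library total. With TGFβ1, Pbrm1 lay between 222 and 274 CPM in PBRM1 KO and between 276 and 292 CPM in control libraries. Without it the ranges were 207 to 245 and 258 to 328 CPM. The genotypes thus did not overlap at either treatment, as was so for 11.9% and 15.7% of all tested genes. Neither genotype difference passed (log2 −0.25 ± 0.10 with TGFβ1, edgeR adjusted p = 0.513, and −0.33 ± 0.10 without it, adjusted p = 0.349). Nor did their average, chosen after the data were seen (−0.29 ± 0.07, edgeR adjusted p = 0.069). A 3′ end count need not read the edited stretch and checks nothing about it. The 2 replicate 3 libraries with TGFβ1 stood apart. The median of 15 tested TGFβ-SMAD feedback and target genes lay log2 0.82, 0.64 and 0.26 above untreated cells in PBRM1 KO replicates 1, 2 and 3, and 0.58, 0.68 and 0.32 above them in control replicates 1, 2 and 3. Results that rest on these 2 libraries are given with and without them. Both were also the lowest of their groups for Cd24a, Epcam and Sox9. Leaving them out therefore raises the TGFβ1 differences of these genes by construction and is no independent check. Of those 15, 10 were called higher and 1 lower in PBRM1 KO cells, and 8 higher and 1 lower in control cells. Of all tested genes, 7.65% were called higher and 3.72% lower in PBRM1 KO cells, and 5.89% higher and 2.91% lower in control cells.

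Among the 6 genes, Cd24a had the clearest difference with TGFβ1. It rose by log2 0.42 ± 0.12 in PBRM1 KO cells (1.33-fold, edgeR adjusted p = 0.0435), and its value in control cells was 0.33 ± 0.12 (1.26-fold, adjusted p = 0.109). Cd44 and Epcam were not called in either genotype, and Sox9 lay at log2 0.10 and 0.05 in PBRM1 KO and control cells, or 0.22 and 0.23 without both replicate 3 libraries with TGFβ1. None of the 4 tested genes passed in a genotype comparison. Prom1 and Aldh1a3 were near the limit of detection in every group. Errors after log2 fold changes are standard errors, and called means a Benjamini-Hochberg adjusted p below 0.05 over all genes tested. The labels call the replicates biological but do not say that they were separate cultures, so the p-values measure the spread between these samples only.

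**Figure D1:**
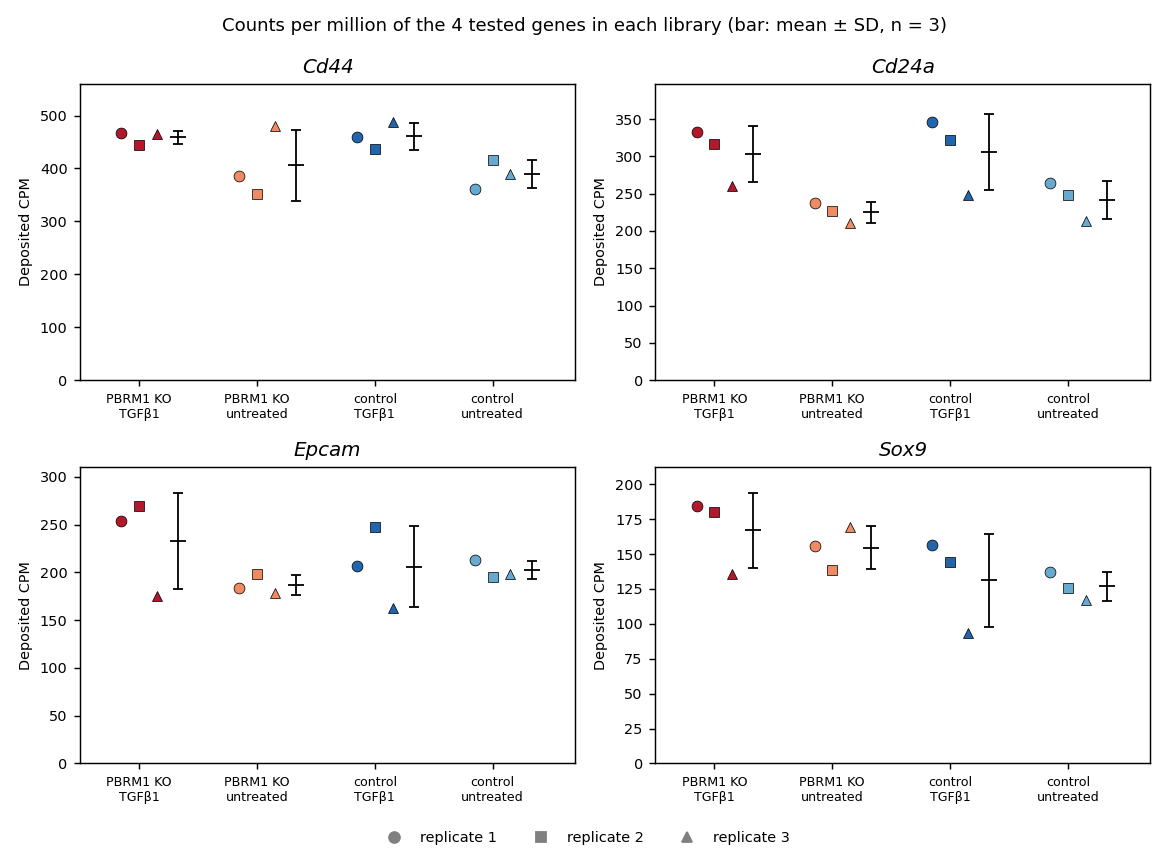
Deposited CPM of Cd44, Cd24a, Epcam and Sox9 (vertical axes, from 0) in the 12 libraries, by group (horizontal axis), with a symbol per replicate number and the mean ± SD of n = 3 beside each group. Cd24a is higher in all 3 TGFβ1 libraries than in all 3 untreated libraries of PBRM1 KO cells, and the replicate 3 libraries with TGFβ1 hold the lowest Cd24a, Epcam and Sox9 of their groups.

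The start regions of Epcam and Cd44 are shown because they differ in the E-box, letters that SNAI and ZEB factors can bind; RefSeq sequences on GRCm38.p6 were found for 3 of the 6 genes (Epcam, Cd44 and Prom1). Each runs 5′ to 3′ on the gene's strand, from 250 bases before to 50 after the annotated start, and capitals mark the E-box CACCTG or its reverse complement CAGGTG. The first lies at chr17:87635729-87636028 on the plus strand and the second at chr2:102901616-102901915 on the minus strand. The counts were made on mm39, and the windows were matched by gene symbol alone.
Epcam: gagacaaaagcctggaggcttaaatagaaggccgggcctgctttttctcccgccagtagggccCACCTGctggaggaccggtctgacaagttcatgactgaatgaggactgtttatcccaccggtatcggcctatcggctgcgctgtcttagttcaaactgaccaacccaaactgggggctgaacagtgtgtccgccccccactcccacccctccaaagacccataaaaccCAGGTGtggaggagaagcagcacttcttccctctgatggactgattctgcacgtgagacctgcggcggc
Cd44: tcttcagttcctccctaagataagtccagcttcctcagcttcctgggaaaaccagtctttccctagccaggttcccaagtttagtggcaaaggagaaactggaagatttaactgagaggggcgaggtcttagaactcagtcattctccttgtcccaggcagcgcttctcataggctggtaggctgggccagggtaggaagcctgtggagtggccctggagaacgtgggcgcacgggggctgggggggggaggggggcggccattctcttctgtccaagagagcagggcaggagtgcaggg
The Epcam window held 2 such E-boxes, starting 187 and 19 bases before the start site, and the Cd44 window held 0. Of 32851 windows of the same length, 20.2% held at least 1 and 2.9% held 2 or more. Neither window held the AP-1 letters TGANTCA, searched on both strands and found in 7.8% of windows, and the SMAD letters CAGAC or GTCTG occurred once in Epcam, 0 times in Cd44 and at least once in 49.6% of windows. A match to these letters is a description of the sequence and shows no binding.

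Cd24a encodes the mouse CD24 glycoprotein. It was counted at 332, 317 and 260.3 CPM in PBRM1 KO cells with TGFβ1, replicates 1 to 3, and at 238, 226 and 210.4 CPM in untreated PBRM1 KO cells. All 3 treated libraries lay above all 3 untreated ones. In control cells it was counted at 346, 322 and 248 CPM with TGFβ1 and at 264, 248 and 214 CPM without it, so that here the lowest treated library lay inside the untreated range. The group means were 303 ± 37.8 and 225 ± 13.8 CPM in PBRM1 KO cells and 305 ± 50.7 and 242 ± 25.6 CPM in control cells, with and without TGFβ1 (SD, n = 3).

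By edgeR the TGFβ1 difference of Cd24a was called in PBRM1 KO cells, the only call among the 4 tested genes; DESeq2 called it too, and limma-voom did not (adjusted p = 0.0506). In that comparison 11.4% of all tested genes were called and 29.9% did not overlap between the groups. With 1 call in 4, the share rests on a single gene and is not set apart from that background. In control cells 0 of the 4 were called, against 8.81% of all tested genes; 2 of the 4 (Cd24a and Cd44) had an unadjusted p below 0.05, and DESeq2 and limma-voom also called 0. The interaction of Cd24a between genotype and TGFβ1 was log2 0.08 ± 0.17 (95% interval −0.29 to 0.45, adjusted p = 1), so the calls in the genotypes were not shown to differ. For the mean of both genotypes, a comparison chosen after the data were seen, TGFβ1 raised Cd24a by log2 0.38 ± 0.09 (1.30-fold, adjusted p = 0.00665); 25.7% of all tested genes were called there. Cd24a was higher with TGFβ1 in 3 of 3 libraries of the same number in each genotype.

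The Cd24a difference was smallest in the replicate 3 libraries. Against the untreated mean of their genotype, Cd24a lay log2 0.56, 0.49 and 0.21 higher in PBRM1 KO replicates 1, 2 and 3 with TGFβ1 and 0.52, 0.42 and 0.04 higher in control replicates 1, 2 and 3. Untreated replicate 3 was itself the lowest of its group in both genotypes. Against the untreated library of the same number, the differences were 0.48, 0.48 and 0.31 in PBRM1 KO cells and 0.39, 0.38 and 0.22 in control cells. Without both replicate 3 libraries with TGFβ1 it was higher by log2 0.50 ± 0.09 in PBRM1 KO cells (edgeR adjusted p = 0.000859) and 0.45 ± 0.09 in control cells (adjusted p = 0.00223), and passed in both. These 2 libraries held the least Cd24a of their groups, so leaving them out had to raise the difference and adds no support. The untreated replicate 3 libraries, also the lowest of their groups, were kept in that fit. Leaving out any 1 of 9 libraries ended the call of Cd24a in PBRM1 KO cells (edgeR adjusted p = 0.0507 to 0.171, with log2 values from 0.36 to 0.44). These were PBRM1 KO TGFβ1 replicates 1 and 2, control TGFβ1 replicate 2 and all 6 untreated libraries. Leaving out control TGFβ1 replicate 3 brought the call in control cells (0.46 ± 0.11, adjusted p = 0.0135).

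**Figure D2:**
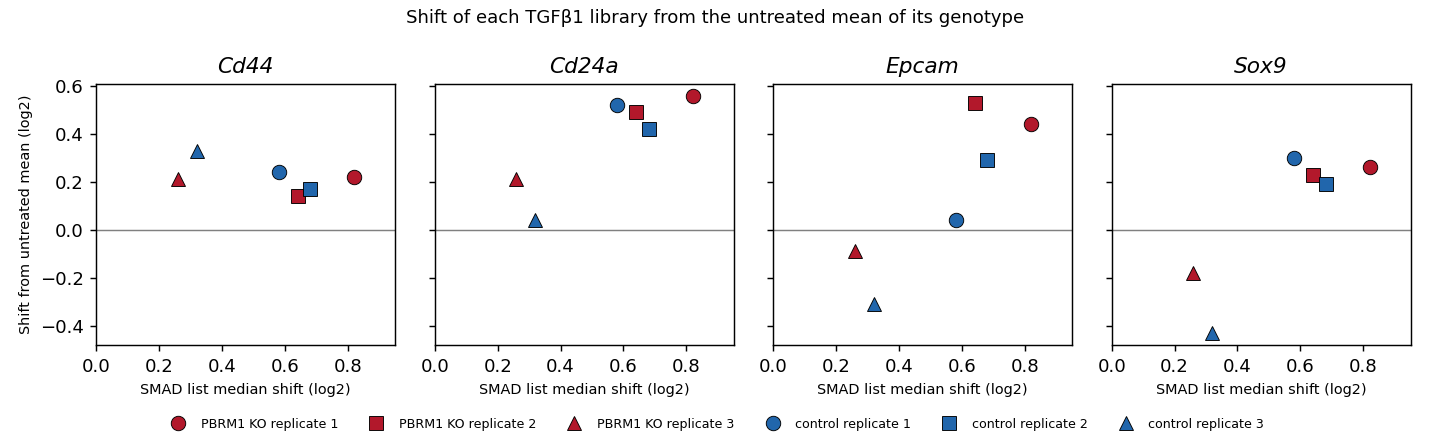
Shift of each gene (vertical axis, log2 CPM with a pseudocount of 1) in each of the 6 TGFβ1 libraries from the untreated mean of its genotype, against the median shift of 15 TGFβ-SMAD genes in the same library (horizontal axis, log2). The replicate 3 libraries (triangles) lie at 0.26 and 0.32 on the horizontal axis and below the others for Cd24a, Epcam and Sox9, while Cd44 lies between 0.14 and 0.33 in all 6.

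CD24 shares its lipid anchor with other surface proteins. Of 14 listed GPI-anchored proteins 8 were tested, and 3 rose and 1 fell with TGFβ1 in both PBRM1 KO and control cells. Nt5e (CD73), which makes adenosine, rose by log2 0.98 ± 0.14 and 1.25 ± 0.14, Cd109 by 1.62 ± 0.19 and 1.28 ± 0.20, and the heparan sulfate proteoglycan gene Gpc1 by 1.02 ± 0.19 and 0.93 ± 0.19, in PBRM1 KO and control cells in that order. Msln, mesothelin, fell (log2 −1.36 ± 0.19 and −1.49 ± 0.19). The list median was log2 0.22 in PBRM1 KO and 0.18 in control cells, beside 0.00 over all tested genes in each. Ly6e, a GPI-anchored protein of the Ly6 family, was lower in PBRM1 KO than in control cells, by log2 −1.04 ± 0.20 with TGFβ1 (adjusted p = 0.0481) and −1.32 ± 0.19 without it (adjusted p = 0.0103). It was the only call of this list between genotypes. The call with TGFβ1 was kept in 7 of 22 alternatives and that without it in 19 of 22.

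Cd44 encodes the hyaluronan receptor and had the highest 3′ end counts of the 6 genes, with a mean of 429 CPM over the 12 libraries; 97.7% of tested genes lay below it. It was counted at 468, 445 and 464 CPM in PBRM1 KO cells with TGFβ1 and at 385, 352 and 481 CPM in untreated PBRM1 KO cells. Replicate 3 of the untreated PBRM1 KO cells was the highest of these 6 libraries, so the groups overlapped. In control cells Cd44 was counted at 459, 437 and 487 CPM with TGFβ1 and at 362, 415 and 390 CPM without it, with all treated libraries above all untreated ones; 26.2% of tested genes likewise did not overlap in that comparison.

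The TGFβ1 difference of Cd44 was log2 0.16 ± 0.11 in PBRM1 KO cells (95% interval −0.07 to 0.40, edgeR adjusted p = 0.355) and 0.24 ± 0.11 in control cells (95% interval 0.01 to 0.47, adjusted p = 0.188). Neither passed, and the intervals leave room for a change of up to log2 0.40 and 0.47. Without untreated PBRM1 KO replicate 3 the first value was 0.29, still not called (adjusted p = 0.105). Averaged over both genotypes Cd44 lay log2 0.20 ± 0.08 higher with TGFβ1 (adjusted p = 0.0669), and adjusted p = 0.0166 without untreated PBRM1 KO replicate 3. The group means were 459 ± 12.2 and 406 ± 67 CPM in PBRM1 KO cells and 461 ± 25.2 and 389 ± 26.7 CPM in control cells, with and without TGFβ1 (SD, n = 3). Both TGFβ1 groups had the higher means, and the genotypes differed by less than their spread at each treatment.

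Has2, Spp1 and Msn were called higher with TGFβ1 in both genotypes. Of 20 listed hyaluronan enzymes and CD44 partners 14 were tested; 5 rose in PBRM1 KO cells and 4 in control cells with TGFβ1, and 0 fell, with 8 and 7 at an unadjusted p below 0.05 in either direction. Has2, which makes hyaluronan, was counted at 161 ± 55.4 and 35.2 ± 2.39 CPM in PBRM1 KO cells with and without TGFβ1, and at 169 ± 63.2 and 35.5 ± 1.75 CPM in control cells (log2 2.18 ± 0.27 and 2.24 ± 0.28). Spp1, osteopontin, a secreted CD44 ligand, rose by 2.05 ± 0.24 and 2.58 ± 0.24, and Msn, moesin, which ties CD44 to actin, by 0.47 ± 0.09 in each genotype. The list median was log2 0.09 in PBRM1 KO and 0.15 in control cells. For TGFβ1 averaged over both genotypes, 6 of the 14 were called higher and 3 lower, beside 25.7% of all tested genes called. Between genotypes none passed at either treatment. Averaged over both treatments, 1 of the 14 was called higher in PBRM1 KO cells, beside 1.96% of all tested genes called. At each treatment the smallest p was that of Nf2, merlin, at 0.37 ± 0.10 with TGFβ1 (edgeR adjusted p = 0.228) and 0.26 ± 0.10 without it (adjusted p = 0.545).

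The ratio of Cd44 to Cd24a counts was set out because the ratio of the proteins defines the CD44-high CD24-low phenotype. It is a ratio of counts of 2 genes and says nothing of single cells or of protein. It was 1.41, 1.41 and 1.78 in PBRM1 KO cells with TGFβ1 and 1.62, 1.56 and 2.29 without it, against 1.33, 1.36 and 1.96 in control cells with TGFβ1 and 1.37, 1.67 and 1.83 without it. TGFβ1 and untreated libraries overlapped in both genotypes. The mean log2 ratio was 0.61 ± 0.20 and 0.84 ± 0.31 in PBRM1 KO cells and 0.61 ± 0.32 and 0.69 ± 0.21 in control cells, with and without TGFβ1 (SD, n = 3). The differences, −0.24 in PBRM1 KO and −0.08 in control cells, were smaller than the SD of the untreated group in each genotype, and no test was made. Between libraries of the same number, the log2 ratio with TGFβ1 minus that without it was −0.20, −0.15 and −0.36 in PBRM1 KO cells, lower in 3 of 3, and −0.05, −0.30 and 0.10 in control cells, lower in 2 of 3. Replicate 3 had the highest ratio in each of the 4 groups.

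**Figure D3:**
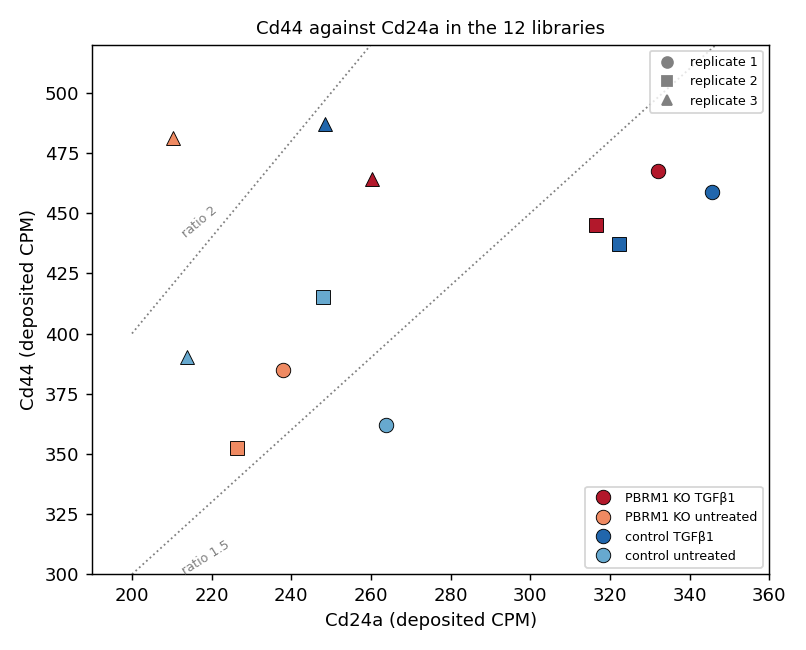
Cd44 (vertical axis, deposited CPM) against Cd24a (horizontal axis, deposited CPM) in the 12 libraries, coloured by group and with a symbol per replicate number; dotted lines mark ratios of 1.5 and 2. The 4 TGFβ1 libraries of replicates 1 and 2 lie at the right with ratios from 1.33 to 1.41, and only untreated PBRM1 KO replicate 3 lies above a ratio of 2, at 2.29.

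Epcam encodes the epithelial cell adhesion molecule. It was counted at 254, 270.0 and 176 CPM in PBRM1 KO cells with TGFβ1 and at 184, 199 and 178 CPM without it. Replicates 1 and 2 lay above all 3 untreated libraries, and replicate 3 lay below them. Control cells held 207, 248 and 163 CPM with TGFβ1 and 213, 195 and 199 CPM without it, and the treated libraries fell on both sides of the untreated ones. The group means were 233 ± 50.4 and 187 ± 10.4 CPM in PBRM1 KO cells and 206 ± 42.5 and 202 ± 9.45 CPM in control cells, with and without TGFβ1 (SD, n = 3). The coefficient of variation was 21.6% and 20.6% with TGFβ1 and 5.55% and 4.67% without it, for PBRM1 KO and control cells in that order.

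With all libraries the TGFβ1 difference of Epcam was log2 0.30 ± 0.15 in PBRM1 KO cells (95% interval −0.02 to 0.63, edgeR adjusted p = 0.216) and 0.02 ± 0.15 in control cells (95% interval −0.30 to 0.35, adjusted p = 0.944). Without both replicate 3 libraries with TGFβ1 it was 0.46 ± 0.09 in PBRM1 KO cells and passed (adjusted p = 0.00155), and 0.16 ± 0.09 in control cells (adjusted p = 0.237). Leaving out PBRM1 KO TGFβ1 replicate 3 alone also brought the call in PBRM1 KO cells (0.44 ± 0.13, adjusted p = 0.0272). The interaction was 0.28 ± 0.21 with all libraries and 0.30 ± 0.13 without both replicate 3 libraries (adjusted p = 1 in both fits), so the 2 genotypes were not shown to differ. In control cells its value was −0.14 without TGFβ1 replicate 2 and −0.02 without untreated replicate 2.

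Of 15 listed EPCAM partners and cleaving enzymes 13 were tested, and 2 rose and 1 fell with TGFβ1 in each genotype. Adam10, a protease that sheds surface proteins, rose by log2 0.46 ± 0.13 in PBRM1 KO and 0.47 ± 0.13 in control cells, and Fhl2, a partner of the cleaved tail of human EPCAM, by 0.86 ± 0.17 in each genotype. The list median was log2 0.05 in PBRM1 KO and 0.05 in control cells. Between genotypes none passed at either treatment. Averaged over both treatments, 1 of the 13 was called lower in PBRM1 KO cells, beside 1.96% of all tested genes called. At each treatment St14, the protease matriptase, had the smallest p, at −0.31 ± 0.13 with TGFβ1 (edgeR adjusted p = 0.547) and −0.62 ± 0.13 without it (adjusted p = 0.0859).

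Sox9 had higher means in PBRM1 KO cells at both treatments, but no difference passed. It was counted at 185, 180.2 and 136 CPM in PBRM1 KO cells with TGFβ1, against 156, 144 and 93.5 CPM in control cells with TGFβ1. Untreated PBRM1 KO cells held 156, 138 and 169 CPM, against 137, 126 and 117 CPM in untreated control cells. The untreated groups did not overlap, as was so for 15.7% of all tested genes, while the TGFβ1 groups did. Sox9 was higher in PBRM1 KO than in control cells in 3 of 3 libraries of the same number at each treatment. The group means were 167 ± 27.1 and 131 ± 33.4 CPM with TGFβ1 and 155 ± 15.4 and 127 ± 10.2 CPM without it, in PBRM1 KO and control cells in that order (SD, n = 3).

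The genotype difference of Sox9 was log2 0.33 ± 0.16 with TGFβ1 (95% interval −0.01 to 0.68, edgeR adjusted p = 0.605) and 0.28 ± 0.16 without it (95% interval −0.06 to 0.63, adjusted p = 0.81). Averaged over both treatments, a comparison chosen after the data were seen, it was 0.31 ± 0.11 (1.24-fold, unadjusted p = 0.0177, adjusted p = 0.241). Without both replicate 3 libraries with TGFβ1 this average was 0.28 ± 0.07 and passed (adjusted p = 0.0452), and it also passed with no filter on low counts (0.33 ± 0.08, adjusted p = 0.00381); the other alternatives gave adjusted p up to 0.419. Only 0.271% of all tested genes were called between genotypes with TGFβ1, 0.278% without it and 1.96% for the average. Of the 4 tested genes 0 were called in any of these 3 comparisons, with DESeq2 and limma-voom calling 0 as well and an unadjusted p below 0.05 for 0, 0 and 1 of them. With TGFβ1 the genotypes did not overlap for 11.9% of tested genes, while for all 4 genes they overlapped.

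With TGFβ1, Sox9 lay at log2 0.10 ± 0.16 in PBRM1 KO cells (edgeR adjusted p = 0.749) and 0.05 ± 0.16 in control cells (adjusted p = 0.888). Replicate 3 was the lowest of its group in both genotypes, log2 −0.18 and −0.43 from the untreated mean, while replicates 1 and 2 lay from 0.19 to 0.30 above it. Without both replicate 3 libraries the values were 0.22 ± 0.10 (edgeR adjusted p = 0.113) and 0.23 ± 0.10 (adjusted p = 0.0988), and their average passed (0.23 ± 0.07, adjusted p = 0.0165). In control cells Sox9 turned to −0.11 without TGFβ1 replicate 1 and to −0.04 without TGFβ1 replicate 2, so its direction there rests on single libraries. Of 14 other SOX genes 7 were tested, and Sox4, a factor that TGFβ1 is known to induce, was the only call with TGFβ1: it rose by 0.67 ± 0.14 in PBRM1 KO cells and 0.54 ± 0.14 in control cells. Sox12 had the smallest p between genotypes, at 0.35 ± 0.17 with TGFβ1 (adjusted p = 0.595) and 0.37 ± 0.16 without it (adjusted p = 0.603). The SOX list median was 0.05 in PBRM1 KO and 0.43 in control cells with TGFβ1.

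No genotype difference of the other tested genes passed, and those of Cd44 and Cd24a were near 0. In PBRM1 KO against control cells, Cd44 lay at log2 −0.02 ± 0.11 with TGFβ1 and 0.06 ± 0.11 without it, and Cd24a at −0.02 ± 0.12 and −0.11 ± 0.12. Epcam lay at 0.17 ± 0.15 and −0.12 ± 0.15, with 95% intervals of −0.16 to 0.49 and −0.44 to 0.21. It was higher in PBRM1 KO cells in 3 of 3 libraries of the same number with TGFβ1 and in 1 of 3 without it. With single libraries left out, its value with TGFβ1 ran from 0.03 to 0.33. Over Cd44, Cd24a and Epcam the adjusted p with all libraries ran from 0.849 to 0.987 (edgeR). For all 4 tested genes the interaction had adjusted p = 1, and 0 of 14012 genes (0% of them) were called there, with 247 at an unadjusted p below 0.05 and 0 called by DESeq2 or limma-voom.

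**Figure D4:**
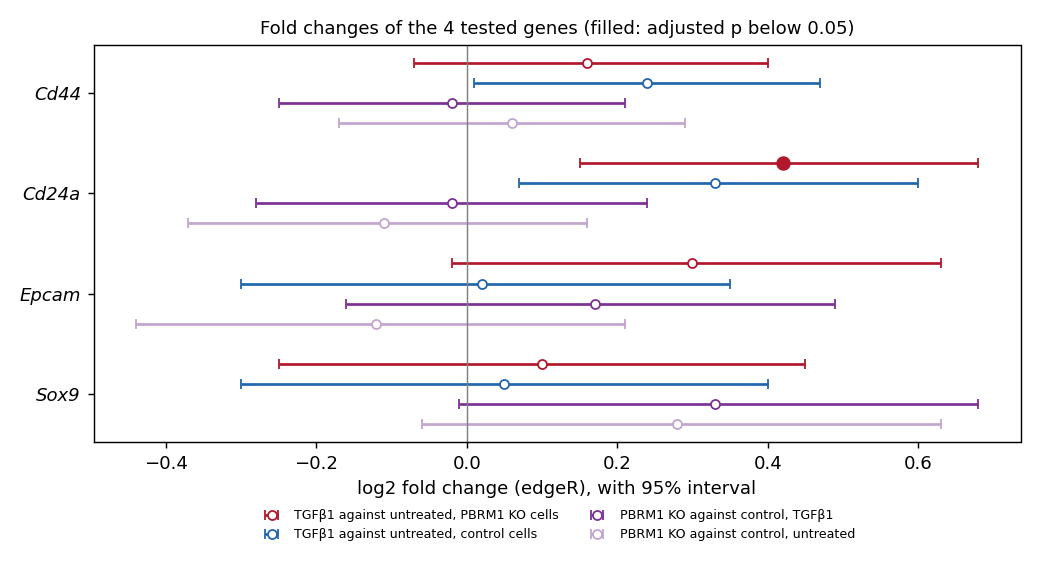
The log2 fold changes of the 4 tested genes in 4 comparisons (points, edgeR), with 95% intervals as bars; filled points passed an adjusted p below 0.05. Cd24a with TGFβ1 in PBRM1 KO cells, at 0.42, is the only filled point, and both genotype intervals of Sox9 reach just below 0.

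Prom1 and Aldh1a3 gave too few counts for a test. Prom1 had 1 count in PBRM1 KO TGFβ1 replicate 1, 1 count in control TGFβ1 replicate 2 and 0 counts in the other 10 libraries. In the 3 libraries of each untreated group a count of 0 allows up to 0.0908 CPM in PBRM1 KO and 0.0958 CPM in control cells (3 counts over the group, counting error only). Aldh1a3 was counted at 1.33, 2.33 and 2.75 in PBRM1 KO cells with TGFβ1 and 3.67, 2.5 and 2.67 without it, and at 2.5, 4.17 and 2.5 in control cells with TGFβ1 and 3.83, 1.67 and 5 without it. The counts of Aldh1a3 were fractional in 11 of 12 libraries, so reads shared with other genes may enter them. No library exceeded 0.532 CPM of Aldh1a3, and the groups overlapped throughout; differences between groups were not detectable at this depth.

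**Figure D5:**
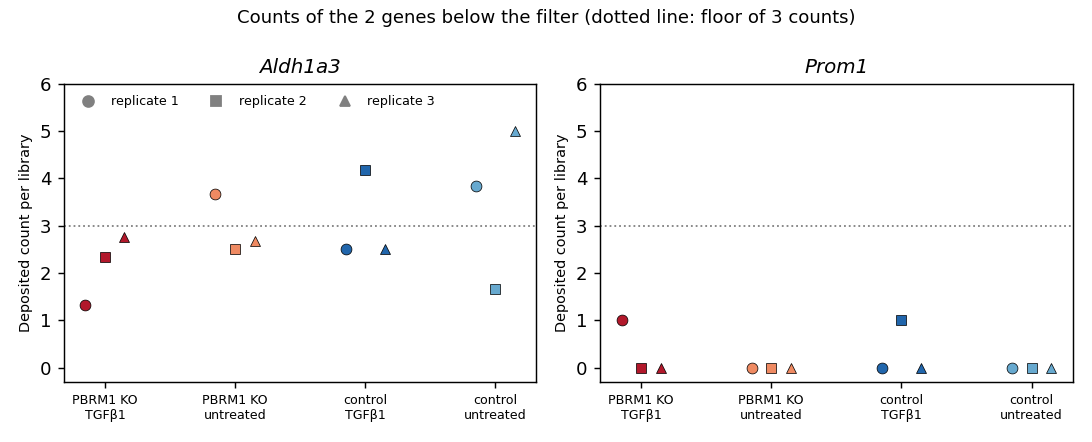
Deposited counts of Aldh1a3 and Prom1 (vertical axes) in each library, by group (horizontal axis), with a symbol per replicate number and a dotted line at the floor of 3 counts. Aldh1a3 lies between 1.33 and 5 counts in all groups, and Prom1 has 1 count in 2 libraries and 0 in the others.

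Genes that work beside Prom1 and Aldh1a3 were measurable. Prom2, the second prominin, fell with TGFβ1 to 5.12 ± 1.07 CPM in PBRM1 KO cells, against 10.6 ± 0.295 CPM untreated, and to 8.95 ± 2.01 CPM in control cells, against 17.2 ± 3.22 CPM untreated (log2 −1.05 ± 0.20 and −0.93 ± 0.18). It also had the smallest p of its list between genotypes, at −0.82 ± 0.20 with TGFβ1 (edgeR adjusted p = 0.145) and −0.70 ± 0.18 without it (adjusted p = 0.181). Averaged over both treatments, 1 gene of that list was called lower in PBRM1 KO cells, beside 1.96% of all tested genes called. Of 10 listed genes of prominins, tetraspanins and protrusions 9 were tested, and 3 rose and 1 fell in PBRM1 KO cells and 2 rose and 1 fell in control cells, with medians of 0.22 and 0.15. Plin2, a lipid droplet protein, rose by 1.38 ± 0.15 and 0.91 ± 0.15 and Myo10, a filopodial motor, by 0.89 ± 0.18 and 0.96 ± 0.18; Cd151 rose in PBRM1 KO cells by 0.37 ± 0.09.

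Of 19 genes of retinoic acid synthesis, removal and reception 9 were tested. Rdh10, which makes retinaldehyde, the substrate of ALDH1A3, was counted at 348 ± 99.1 and 83.9 ± 5.87 CPM in PBRM1 KO cells with and without TGFβ1, and at 452 ± 142 and 138 ± 5.07 CPM in control cells (SD, n = 3). Within each genotype it was the only gene of the list called higher, by log2 2.04 ± 0.22 and 1.71 ± 0.22 (edgeR adjusted p = 0.00016 and 0.000504). For TGFβ1 averaged over both genotypes, 2 of the 9 were called higher and 3 lower. Dhrs9, a retinol dehydrogenase, fell (log2 −2.12 ± 0.21 and −1.11 ± 0.21), and Rarg, a retinoic acid receptor, fell in control cells (−0.43 ± 0.11). The list median was −0.04 in each genotype. None passed between genotypes; the smallest p values were those of Rarg at 0.26 ± 0.11 with TGFβ1 (adjusted p = 0.539) and Rdh10 at −0.72 ± 0.22 without it (adjusted p = 0.327).

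A wider list of 31 tumour-initiating and mammary stem markers, which holds the 6 genes, had 17 tested members. With TGFβ1 6 rose and 2 fell in PBRM1 KO cells and 4 rose and 2 fell in control cells, with medians of log2 0.16 and 0.30. Over all tested genes 7.65% were called higher and 3.72% lower in PBRM1 KO cells, and 5.89% and 2.91% in control cells. Itgb3 (integrin β3, CD61), a marker of mouse luminal progenitors, rose by 4.44 ± 0.63 and 4.02 ± 0.62, Jag1, a Notch ligand, by 2.65 ± 0.37 and 2.56 ± 0.37, and Cd14 by 0.82 ± 0.14 and 0.60 ± 0.14. Itga6 (integrin α6, CD49f), used with CD24 to sort mouse mammary stem cells, fell (log2 −1.35 ± 0.19 and −0.98 ± 0.19), as did the receptor gene Notch1 (−0.87 ± 0.15 and −0.77 ± 0.15). Between genotypes 0 of the 17 passed, beside 0.271% of all tested genes with TGFβ1 and 0.278% without it, so this is not set apart from that background. The smallest p without TGFβ1 was that of Abcg2, a drug efflux transporter, at −0.68 ± 0.20 (edgeR adjusted p = 0.275). With TGFβ1 it was that of Sox9, at 0.33 ± 0.16 (edgeR adjusted p = 0.605).

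Markers of mammary cell states were set beside these values. The luminal keratins Krt8 and Krt18 ran from 572 to 916 CPM and from 711 to 1010 CPM over the 12 libraries, while the basal markers Krt5 and Trp63 stayed at or below 0.142 and 0.546 CPM. Krt14 ran from 3.98 to 90.7 CPM. Of 8 tested luminal progenitor markers 2 rose and 2 fell in PBRM1 KO cells with TGFβ1, and 2 rose and 3 fell in control cells, with medians of log2 −0.26 and −0.40. Krt19 fell (log2 −0.80 ± 0.15 and −1.05 ± 0.15), as did Krt8 (−0.30 ± 0.07 and −0.49 ± 0.07). Krt18 fell in control cells (−0.39 ± 0.09), and Lcn2, a secreted iron-carrier protein, rose by 2.04 ± 0.49 and 1.39 ± 0.26. Its level went from 1.06 ± 0.339 to 4.4 ± 0.751 CPM in PBRM1 KO cells and from 31.9 ± 6.72 to 83.6 ± 38.7 CPM in control cells. Lcn2 was lower in PBRM1 KO than in control cells by log2 −4.25 ± 0.32 with TGFβ1 and −4.90 ± 0.40 without it. Ehf, an epithelial ETS factor, was called lower without TGFβ1, at 0.0908 ± 0.0018 CPM in PBRM1 KO cells, near the level of 1 count, and 2.26 ± 0.70 CPM in control cells. Among 8 basal markers 0 passed in PBRM1 KO cells (4 at an unadjusted p below 0.05, the smallest that of Mylk at −1.37 ± 0.43, edgeR adjusted p = 0.056) and Acta2 rose in control cells by 2.49 ± 0.63; between genotypes Vim had the smallest p, at 0.35 ± 0.14 with TGFβ1 and 0.61 ± 0.14 without it (adjusted p = 0.469 and 0.109). The median of the 8 basal markers between genotypes lay in the other direction from Vim. It was log2 −0.52 with TGFβ1, −0.46 without it and −0.39 averaged over both treatments. Of 5 mature luminal markers Esr1 fell in PBRM1 KO cells (log2 −0.52 ± 0.16) and Areg rose in control cells by 0.90 ± 0.26. Esr1 lay at 0.46 ± 0.17 and 0.67 ± 0.16 between genotypes with and without TGFβ1 (edgeR adjusted p = 0.41 and 0.12). Averaged over both treatments, 1 basal and 1 mature luminal marker were called higher in PBRM1 KO cells and 2 luminal progenitor markers lower. Of all tested genes 1.96% were called for that average.

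Markers of other cell types were at low levels. Of 15 leukocyte markers 2 reached a mean of 1 CPM in each group, the summed level ran from 7.76 to 11.1 CPM, and Ptprc stayed at or below 0.181 CPM. Of 10 endothelial markers 2 did so, with sums from 19.8 to 34.5 CPM and Pecam1 and Cdh5 at or below 0.543 and 0.444 CPM; Egfl7 fell with TGFβ1 (log2 −0.69 ± 0.20 in PBRM1 KO and −0.73 ± 0.20 in control cells), and Flt1 lay at 0.59 ± 0.13 and 0.58 ± 0.14 between genotypes with and without it (edgeR adjusted p = 0.102 and 0.12). Of 10 fibroblast markers 5 or 6 reached 1 CPM, with sums from 29.2 to 110 CPM and Pdgfra from 3.31 to 6.74 CPM. Pdgfrb averaged 5.30 ± 3.61 and 0.149 ± 0.185 CPM in PBRM1 KO cells with and without TGFβ1 (SD, n = 3, edgeR adjusted p = 0.00529), and 2.20 ± 1.38 and 0.403 ± 0.451 CPM in control cells (adjusted p = 0.12). Averaged over both treatments, 1 endothelial marker was called higher in PBRM1 KO cells, beside 1.96% of all tested genes called. The part of these cell types in the results was not tested.

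Some calls of these list genes were not held by every alternative. Those of Adam10, Acta2, Areg, Esr1, Egfl7 and Ehf ended in 6 to 11 of the alternatives tried for each, those of Sox4, Rarg and Krt18 in control cells and of Cd151 and Lcn2 in PBRM1 KO cells in 4 or 5, that of Cd14 in control cells in 4, that of Krt8 in PBRM1 KO cells in 3 and that of Gpc1 in control cells in 1.

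The likeness of other genes to the 4 tested ones was measured as Pearson's r of log2 CPM over the 12 libraries, among 8151 genes with a mean of at least 10 CPM. The libraries share treatment, genotype and replicate number, so r is a description of the pattern. Cd24a was most like Heca (r = 0.981), Clic4 (r = 0.98) and C1galt1 (r = 0.979), the last an enzyme that builds the core of O-linked glycans. Cd44 was most like Tnfrsf23 (r = 0.955), Ttc13 (r = 0.892) and Errfi1 (r = 0.867), an inhibitor of the EGF receptor. Epcam was most like Akap8l (r = 0.954), Ift172 (r = 0.952) and Ctns (r = 0.933). Sox9 was most like Spns2 (r = 0.93), Mbnl1 (r = 0.93) and Pja2 (r = 0.925). Among the 4 themselves r was highest between Cd24a and Epcam (0.71) and between Epcam and Sox9 (0.62), and Cd44 ran with none of the others above 0.36.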

How the data were processed

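Poly(A) RNA of 12 libraries was read at the 3′ end on a known strand, with duplicates removed through molecular tags, per the labels' protocols. The submitters' processing notes name build mm39 and the tools edgeR 3.38.4, Subread 2.1.1, featureCounts, SAMtools 1.22.1, STAR 2.7.11 and fastp 0.24.0; their settings and the annotation are not given in the sources used here. Count values, as deposited, were handled like expected counts (estimated counts), since 91.8% were whole (tolerance 0) and the rest were fractional. That share was taken over all genes and libraries, zeros included, and 35661 of the 78317 genes had any count. Fractional values therefore made up a larger part of the counts above 0. The authors' CPM columns, named so in the file headers, hold counts scaled to the library total. Counts were fractional in 6 libraries for Cd24a and Epcam, 3 for Cd44 and 2 for Sox9, so a share of unknown size may come from reads that fit several genes.

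Counts were rounded, filtered with filterByExpr and scaled by TMM. All 12 libraries entered 1 fit with a mean per group and edgeR 4.0.16's quasi-likelihood test in R 4.3.3, with p adjusted over all 14012 genes; the fit was also tested on simulated data. The members and lists were chosen with earlier results of these data known, and the 2 averaged comparisons after the data were seen. Genes beside the 6 were named by rule: up to 3 per direction of each list with the smallest p among those called, else the 1 with the smallest p, and the 3 most correlated genes per tested gene. Same-numbered libraries deviated together from their group means in 2 comparisons, taken as paired from the data and not from the labels: r was 0.226, 0.181 and 0.209 between the PBRM1 KO groups and 0.451, 0.484 and 0.784 between the TGFβ1 groups, all over 0.1. The blocked fit changed no call of the 4 genes there, but called 2780 against 1593 and 158 against 38 genes. Some genes that the rule names are not reported here. Alternatives also used DESeq2 1.42.0 and limma 3.58.1. Replicates correlated at 0.983 to 0.995 and no pair was a copy (chi-square per gene 3.62 to 22.1).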

Additional observations from a re-analysis of the deposited data

How the results depend on the processing

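Alternatives were RLE and library-total scaling, no filter on low counts, a mean of at least 10 CPM, DESeq2, limma-voom, the 6 libraries compared alone, the replicate block, unrounded counts, both TGFβ1 replicate 3 libraries left out, and each library left out in turn. Cd24a averaged over both genotypes was called higher with TGFβ1 in all 21 alternatives run (edgeR, DESeq2 or limma-voom adjusted p from 2.96e-05 to 0.0226). Cd24a in PBRM1 KO cells lost its call in 10 of 22, 9 of them left-out libraries and the other limma-voom (log2 0.41, adjusted p = 0.0506, 0 of the 4 genes called). Prom1 and Aldh1a3 lay under the depth needed for a test.

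With no filter, Cd24a with TGFβ1 in control cells (0.33) and Sox9 between genotypes averaged over treatments (0.33) passed, 1 of the 4 genes in each comparison. The genes called were then 2413 and 2115 for TGFβ1 in PBRM1 KO and control cells, 259 and 278 for genotype with and without TGFβ1, 18 for the interaction and 613 for the averaged genotype. A mean of at least 10 CPM gave 21 and 17 for genotype with and without TGFβ1 and 129 for its average, DESeq2 gave 89 and 106, and the 6 libraries alone gave 4 and 135.

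With the replicate number as a block, Cd24a with TGFβ1 in control cells passed at 0.33 (1 of the 4 genes) and Cd44 averaged over both genotypes at 0.21 (then 2 of the 4, with Cd24a), and no other call of the 4 genes changed. The blocked fit called 2780 and 2397 genes for TGFβ1 in PBRM1 KO and control cells, 158 and 144 for genotype with and without TGFβ1, 4850 for the averaged TGFβ1 and 617 for the averaged genotype, of 14012 tested. Same-numbered libraries did not all deviate together for TGFβ1 in control cells (r = 0.281, −0.12 and 0.156) or for genotype without TGFβ1 (r = 0.203, 0.087 and 0.161).

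Without both TGFβ1 replicate 3 libraries, the calls with TGFβ1 were Cd24a and Epcam (0.46) in PBRM1 KO cells, 2 of the 4 genes, and Cd24a (0.45) in control cells, 1 of the 4. Averaged over both genotypes Cd24a, Epcam (0.31) and Sox9 (0.23) passed, 3 of the 4, and Sox9 (0.28) passed between genotypes averaged over treatments, 1 of the 4. The libraries left out held the lowest Cd24a, Epcam and Sox9 of their groups, so the larger TGFβ1 differences of these genes follow from the choice. Cd44 between genotypes with TGFβ1 turned to 0.01 and the interaction of Sox9 to −0.02. The genes called were 3984 and 3414 for TGFβ1 in PBRM1 KO and control cells, 5901 for its average, 76 and 201 for genotype with and without TGFβ1 and 404 for its average.

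Over the left-out libraries, Cd24a with TGFβ1 ran from 0.36 to 0.49 in PBRM1 KO cells and from 0.22 to 0.46 in control cells, Epcam from 0.17 to 0.44 and from −0.14 to 0.16, and Sox9 in control cells from −0.11 to 0.23. The averages with TGFβ1 ran from 0.14 to 0.26 for Cd44 and from −0.01 to 0.17 for Sox9. Between genotypes with TGFβ1, Cd24a ran from −0.14 to 0.07 and Cd44 from −0.06 to 0.03, and Cd44 without TGFβ1 from −0.08 to 0.15. The averaged genotype values ran from −0.05 to 0.07 for Cd44 and from −0.04 to 0.11 for Epcam, and the interactions from −0.17 to 0.07 for Cd44, from −0.04 to 0.18 for Cd24a and from −0.14 to 0.19 for Sox9. Cd68, a leukocyte marker, ran from −0.22 to 0.07 with TGFβ1 in PBRM1 KO cells, and turned to 0.02, 0.06 and 0.07. Pbrm1 ran from −0.05 to 0.10 with TGFβ1 in control cells, turning to −0.01, −0.04 and −0.05, and to −0.02 for the interaction.

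Genes called ran from 613 to 3059 and from 408 to 2400 for TGFβ1 in PBRM1 KO and control cells, from 2611 to 4772 for its average, from 3 to 61 and from 8 to 75 for genotype with and without TGFβ1, and from 128 to 286 for the averaged genotype. Of the 4 genes, 0 to 2 were called for TGFβ1 in PBRM1 KO cells, 0 to 1 in control cells and 1 to 2 for the average. The cause of these changes was not tested, beyond the fewer samples or genes that a setting leaves.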
